A study of Gallus gallus with 2 samples.

Results

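The 9 genes of innate antimicrobial defence described here were looked up on arrays of chicken ileum, and 7 of them could be read: the beta-defensin genes AvBD10, DEFB4A and AvBD9, the antimicrobial peptide gene LEAP2, the lysozyme genes LYZ and LYG2, and LECT2. They were found by name among 13008 named chicken genes, as every chicken probe set that the annotation of the array gave to exactly 1 gene with one of the listed symbols or an older name of it. The cathelicidin gene CATHL2 (current symbol CATH2) and the peptidoglycan amidase gene PGLYRP2 had no such probe set and were not analysed here. The 7 genes had 9 probe sets in all, a probe set being a group of short probes summarised as 1 value.

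The samples were 2 pools of ileal RNA, each hybridised to 1 GeneChip Chicken Genome Array. Male White Leghorn chicks ate a diet with 650 g/kg of corn (the control) or of ground paddy rice for 2 wk, from 1 to 3 wk of age, in groups of 9 birds, and otherwise had the same feed ingredients. Crude protein and energy content differed between the diets. RNA of 3 birds per diet was pooled, and the study picked birds with a typical ileal MUC2 level, so a pool does not show the spread between birds. With 1 array per diet there was no replicate error and no test could be made, and in whole tissue fewer cells of a type and less RNA per cell cannot be told apart.

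Beta-defensins are small cationic peptides, folded by disulphide bonds, that disrupt bacterial membranes, and they are the only class of defensins known in birds. Epithelial cells and heterophils, the avian counterparts of neutrophils, both make them, and in the chicken their genes lie side by side on chromosome 3. Lysozymes cleave the peptidoglycan of bacterial walls, and LEAP2 encodes a peptide made in liver and intestine. The question addressed by the arrays was which ileal genes differed in level between birds fed paddy rice and birds fed corn.

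Signals are linear values from the MAS5 algorithm, and ratios are given as paddy rice over corn. The level of background was taken as the 95th percentile of 689 probe sets on each array that are not marked as chicken, which was 44.1 for corn and 45.1 for paddy rice. Of the 37693 chicken probe sets, 24415 (64.8%) were above it on both arrays. Low signals give wide ratios. With the chicken probe sets split by mean signal into 4 equal classes, from class 1, the dimmest, to class 4, the brightest, the SD of log2 ratios among probe sets of 1 gene was 0.16 in class 4 (1663 genes), 0.35 in class 3 (1489 genes), 0.78 in class 2 (1161 genes) and 1.85 in class 1 (1112 genes). This SD was taken within the same 2 arrays, so it does not measure variation between birds or between RNA pools. The tissue label was borne out by its markers, since all 19 measured genes of ileal epithelium were above background on both arrays, among them the bile acid carrier genes FABP6 (31195 on corn, 35027 on paddy rice) and SLC10A2 (13832 and 14136).

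Among the antimicrobial genes, AvBD10 had the lowest ratio at 0.406, LEAP2 and LYZ had ratios between 0.714 and 0.839 on both probe sets of each, and DEFB4A was at 1.56 with signals nearer to background. Of the 9 probe sets, 2 had a ratio above 1.5 and 1 a ratio below 0.67, the thresholds of the study. Over all chicken probe sets, 14.6% were above 1.5 and 15.1% below 0.67. By the brightest probe set of each gene, 2 of the 7 genes were above 1.5 and 1 below 0.67, beside 8.27% and 8.57% of the 13008 named genes, and AvBD9, 1 of the 2 above 1.5, was below background. Among probe sets above background on both arrays the shares were 4.37% and 4.74%, and of the 8 antimicrobial probe sets above background DEFB4A was above 1.5 and AvBD10 below 0.67. Of these 8, 6 had ratios below 1 and 2 had ratios above 1, and LEAP2 and LYZ each entered this count with both probe sets. By gene, the ratio was below 1 for 4 of the 6 genes above background on both arrays. The median log2 ratio of the 6 genes above background, by the brightest probe set of each, was -0.30, beside -0.0012 over the 10737 named genes above background, of which 5385 had ratios below 1.

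**Figure D1:**
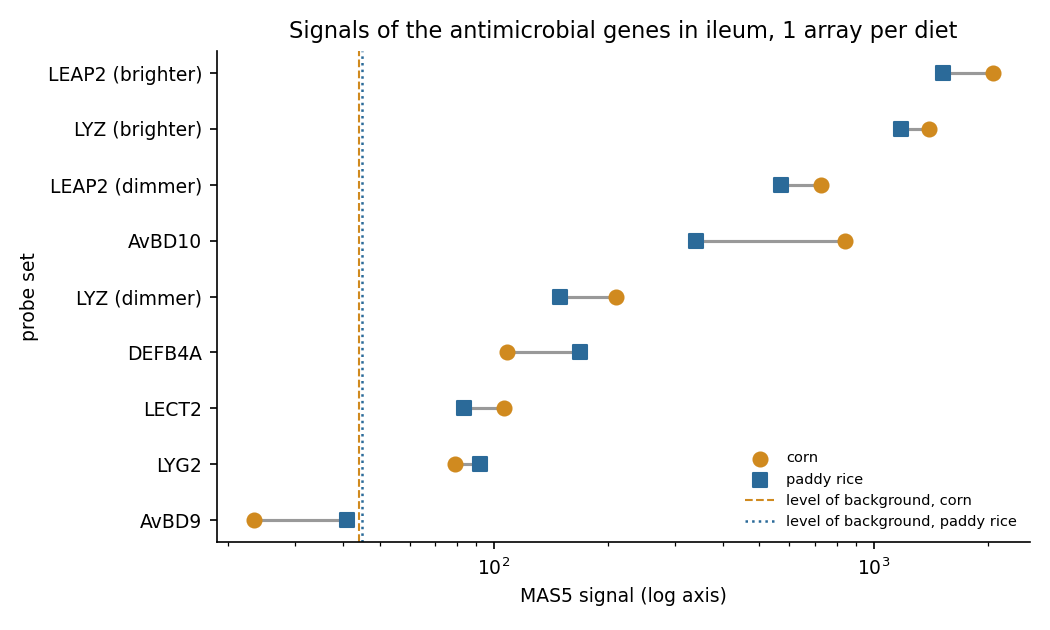
MAS5 signal (log axis) of the 9 probe sets on the corn array (circles) and the paddy rice array (squares), with the level of background of each array as a vertical line. AvBD10 has the widest gap among the probe sets above background, from 841 to 342, and AvBD9 lies below background on both arrays.

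AvBD10, a beta-defensin of epithelia formerly called GAL10, gave a signal of 841 with corn and 342 with paddy rice. The ratio was 0.406, a 2.46-fold lower signal on paddy rice. Both signals stood well clear of background, at 19.1 times its level on corn and 7.58 times on paddy rice. The log2 ratio of -1.30 was 8.36 times the SD between probe sets of 1 gene in class 4 of signal. The mean signal of AvBD10, 536, lay at the dim end of that class, which began at 522. In class 3, just below, the SD was 0.35, so the multiple of 8.36 depends on the class. Of the 1000 chicken probe sets nearest to AvBD10 in signal, 1.0% had a ratio below 0.67, and their 5th to 95th percentiles ran from 0.769 to 1.29. Among the 5782 named genes in class 4, 2 had a lower ratio, and among all 13008 named genes 434 did. The rank thus depends on the class too. The study had picked AvBD10 out from these same arrays, so this rank describes the gene and is not separate evidence. The study also measured the gene, as GAL10, by real-time PCR in ileum and jejunum. It reports that the ileal differences by PCR matched those of its arrays. GAL10 is not named in its text among the genes that differed by PCR. The array fold that the study lists for GAL10 is lower than the ratio found here, and the reason was not tested. The gene had 1 probe set, which is marked as shared between transcripts, so no second probe set could be set beside it. The name Gal10 was also once used for AvBD12. The probe set of AvBD12 itself was at 52.0 on corn and at 29.0, below background, on paddy rice.

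DEFB4A, the chicken gene also called AvBD2 and known as a peptide of heterophil granules, went the other way. Its signal was 108 with corn and 169 with paddy rice, which gave a ratio of 1.56. These signals were 2.45 and 3.75 times the level of background, in class 3. The log2 ratio of 0.64 was 1.83 times the SD between probe sets of a gene there. Of the 1000 probe sets nearest in signal 7.9% were above 1.5, and the value for DEFB4A lay inside their 5th to 95th percentiles (0.626 to 1.62). After 34.5, the 25th percentile, was added to every signal, the ratio was 1.43, between the thresholds.

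AvBD9, another beta-defensin of epithelia, was at 23.3 with corn and 41.1 with paddy rice. Both were below background, so the quotient of 1.76 gives no size of a difference. Of the 1000 probe sets nearest to it in signal, 27.1% were above 1.5 and 30.4% below 0.67. The 3 defensin genes thus had ratios on different sides of 1, and of these AvBD10 alone was measured in class 4 of signal.

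The brighter probe set of LEAP2 was at 2059 with corn and 1520 with paddy rice, 46.7 and 33.7 times the level of background. The ratio was 0.738, between the thresholds. Its second probe set, marked as shared between transcripts, had signals of 727 and 570, a ratio of 0.784. The probe sets differed by 0.087 in log2 ratio, less than the SD of 0.16 between probe sets of a gene at that signal. The log2 ratios of -0.44 and -0.35 were 2.82 and 2.26 times that SD. Among the 1000 probe sets nearest in signal, the 5th percentile of ratios was 0.819 for the brighter probe set, which lay below it. For the dimmer probe set it was 0.764, so that this value lay inside the range. Of the 5782 named genes in class 4, 74 had a ratio below that of the brighter LEAP2 probe set. Of all 13008 named genes, 1536 had.

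LYZ encodes the c-type lysozyme of egg white, which macrophages also secrete. The brighter of its probe sets was at 1403 with corn and 1177 with paddy rice, for a ratio of 0.839. The dimmer probe set was at 210 and 150, a ratio of 0.714. Both lay below 1 but inside the 5th to 95th percentiles of the 1000 nearest probe sets, which began at 0.814 and 0.663. The log2 ratios were 1.62 and 1.38 times the SD between probe sets of a gene in class 4 and class 3.

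LYG2, a lysozyme of the goose type, was at 79.2 with corn and 91.7 with paddy rice, for a ratio of 1.16. LECT2, known in the chicken as the myeloid granule protein MIM1 and in humans as a chemotactic factor for neutrophils made in the liver, was at 106 and 83.5, a ratio of 0.786. These signals were between 1.79 and 2.41 times the level of background, and the log2 ratios of 0.21 and -0.35 were 0.27 and 0.45 times the SD between probe sets of a gene in class 2. Both ratios lay within the spread at that signal. Taking the 99th percentile of the probe sets not marked as chicken as background (78.2 on corn, 96.3 on paddy rice), 6 of the 9 probe sets were above it on both arrays, and those of LYG2, LECT2 and AvBD9 were not.

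**Figure D2:**
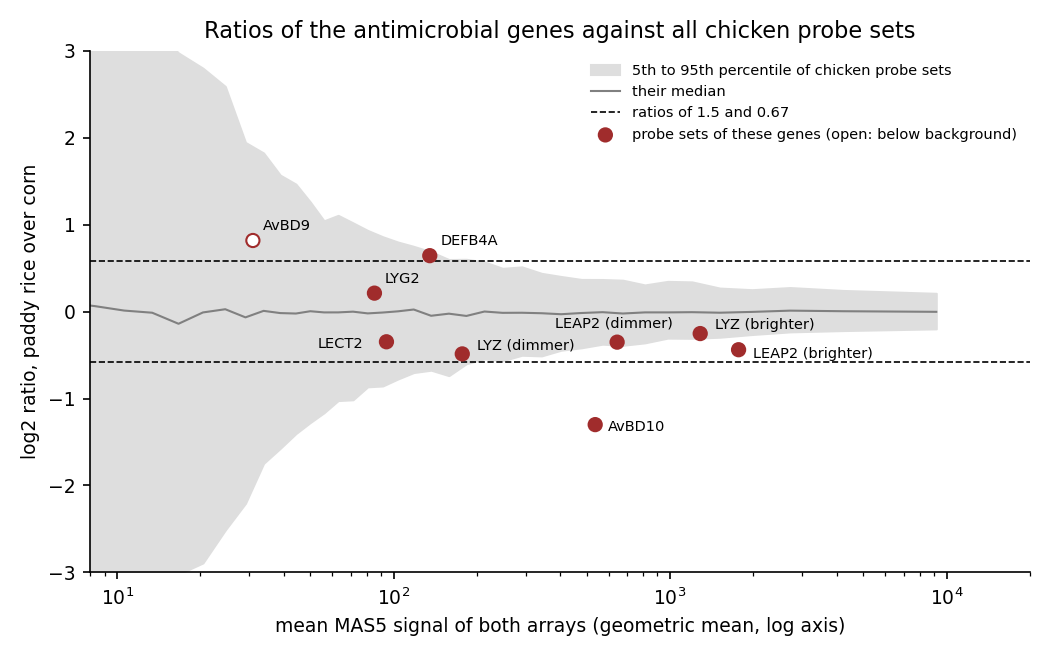
Log2 ratio of paddy rice over corn against the geometric mean signal (log axis) for the 9 probe sets, with the 5th to 95th percentile of all chicken probe sets in 40 bins of signal as a grey band and the thresholds as dashed lines. AvBD10 lies far below the band and the brighter LEAP2 probe set just below it, while DEFB4A lies past a threshold but within the spread of its 1000 nearest probe sets.

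Along chromosome 3, the RefSeq annotation of assembly GRCg7b places 14 beta-defensin genes next to each other with no other protein-coding gene between them, and 13 of them had a probe set here. AvBD10 is the fourth in that order, AvBD9 the fifth and DEFB4A the ninth. Of their 18 probe sets, 5 were above background on both arrays, 3 on 1 array and 10 on neither. Of the 13 genes, AvBD10 alone had a probe set in class 4 of signal. The genes on either side of it, AvBD11 and AvBD9, had no probe set above background on both arrays, so the array does not show whether they shared its low ratio. Beside AvBD10 and DEFB4A, the genes measured above background were AvBD3, AvBD7 and AvBD8. AvBD3 was at 133 with corn and 84.0 with paddy rice, for a ratio of 0.630. On its other probe set, marked as shared between transcripts, AvBD3 was at 122 on corn and at 13.4, below background, on paddy rice. Since only its corn signal was above background, this probe set gives no size of a difference. AvBD7, a heterophil defensin, was at 71.0 and 49.8, a ratio of 0.702. AvBD8 was at 58.2 and 48.1, a ratio of 0.827. The probe sets of AvBD3, AvBD7 and AvBD8 lay in class 2, where the SD between probe sets of a gene is 0.78. Of the cluster, 4 of the 5 genes above background had ratios below 1, beside 5385 of the 10737 named genes above background. On paddy rice AvBD3, AvBD7 and AvBD8 were below 96.3, the 99th percentile of the probe sets not marked as chicken. Of all 18 probe sets, 5 were above 1.5 and 6 below 0.67, beside 14.6% and 15.1% of all chicken probe sets. AvBD1, AvBD4, AvBD5, AvBD6 and AvBD13 had signals between 2.99 and 37.4, all below background.

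**Figure D3:**
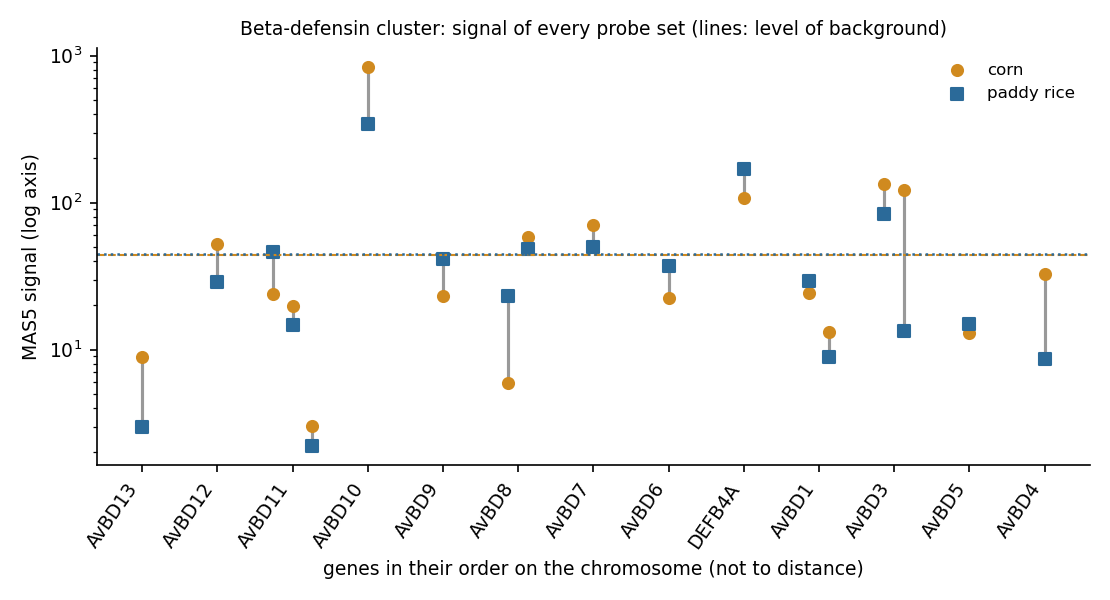
MAS5 signal (log axis) of all 18 beta-defensin probe sets on the corn array (circles) and the paddy rice array (squares), in the order of the genes on chromosome 3, with the level of background as horizontal lines. AvBD10 is the gene furthest above the lines on both arrays, and 10 probe sets lie under the lines on both.

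The cathelicidins are antimicrobial peptides cut from larger precursors, and in the chicken CATHL2 lies in a cluster with CATHB1 and CATH1. The brighter probe set of CATH1 was at 108 with corn and 90.1 with paddy rice, for a ratio of 0.834. Its other probe set was below background on corn (18.8) and at 54.6 on paddy rice. CATHB1 was at 39.1 and 35.5, below background on both arrays.

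A list of other antimicrobial and innate defence genes held 26 measured genes beside the 7 described, and 15 were above background on both arrays. Of the 15, REG4 was above 1.5, AvBD3 below 0.67 and 13 lay between, beside shares of 3.24% above 1.5 and 3.01% below 0.67 among named genes above background. REG4, a secreted lectin gene, was at 1831 with corn and 3496 with paddy rice, for a ratio of 1.91. The median log2 ratio of the 15 was -0.028.

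Genes of microbial sensing and of the cytokines that induce defensin genes were measured on the same arrays. Of 37 measured, 33 were above background on both arrays, and none of these was above 1.5 or below 0.67. Their ratios ran from 0.709 to 1.45, 22 of 33 were below 1, and the median log2 ratio was -0.085. The ends of that range, named after their values were seen, were VDR, the vitamin D receptor, with signals of 692 and 490, and TLR15, a Toll-like receptor of birds and reptiles, with signals of 61.3 and 89.0. With no filter on signal, 1 of the 37 was above 1.5 and 2 were below 0.67, beside 8.27% and 8.57% of all named genes. Among named genes above background the shares were 3.24% and 3.01%. The 4 genes not above background on both arrays were RELA (45.7 on corn, 8.81 on paddy rice), IL22RA2 (55.1 and 28.1), IL1B (38.5 and 57.8) and IL22 (37.2 and 34.5). RELA and IL22RA2 were above background on corn only, IL1B on paddy rice only and IL22 on neither array, so their ratios give no size of a difference.

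Markers of cells that make these peptides were set beside them. Of 17 heterophil and monocyte markers, 13 were above background on both arrays, with signals that summed to 38877 with corn and 41035 with paddy rice, a median log2 ratio of -0.049, and 12 of 13 between the thresholds. The brightest of them, LGALS2 (19424 and 21097) and CTSS (7249 and 7903), carried most of these sums, and the sums over the other 11 ran the other way, at 12203 and 12035. NCF1C, found under the name NCF1, a subunit of the phagocyte oxidase, was not among the 13. Its 1 probe set, marked as shared between transcripts, was at 119 on corn and at 24.9, below background, on paddy rice. With only the corn signal above background, the probe set gives no size of a difference. CYBB, another gene of that oxidase, was among the 13 and went the other way, at 188 and 223 (a ratio of 1.19). Of the 13, 8 had ratios below 1. TREM2, a receptor gene of macrophages, was above 1.5, at 111 on corn and 172 on paddy rice. Its log2 ratio of 0.63 lay inside the 5th to 95th percentiles of chicken probe sets in its bin of signal (-0.67 to 0.69). CSF3R, the receptor for the growth factor of granulocytes, was below background at 18.8 and 8.31, while CSF1R, that of macrophages, was at 1415 and 1324. Of 18 hepatocyte markers, for LEAP2 and LECT2, 6 were above background on both arrays. The coagulation factor gene F2 was at 1431 on corn and 1437 on paddy rice, VTN (vitronectin) at 1396 and 1181, and TTR (transthyretin) at 530 and 414. ALB (albumin) was nearer to background, at 65.9 and 89.4, and the blood protein genes FGA, FGB, APOH and AHSG were below it on both arrays. FGG and F9 were above background on paddy rice only, and AMBP, HRG and C8A on corn only. Signals of the 6 summed to 15390 with corn and 17795 with paddy rice. Without CYP2C23a, a cytochrome P450 gene found under the older name CYP2H1 (11916 and 14599), the other 5 summed to 3475 and 3196. The part of heterophils or hepatocytes in the signals of these antimicrobial genes was not tested.

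The immunoglobulin genes of plasma cells had lower signals on paddy rice, as AvBD10 had. JCHAIN, the joining chain of polymeric immunoglobulins, was at 2404 with corn and 303 with paddy rice (ratio 0.126), and the light chain gene IGLL1 was at 1103 and 235 (ratio 0.213) on a probe set marked as shared. In the list of plasma and B cell markers, 14 of 15 measured genes were above background. Of the 14, these and CD79B (118 and 79.1, a ratio of 0.667) lay under 0.67, and none exceeded 1.5. Among all named genes above background, 3.01% lay under 0.67 and 3.24% above 1.5. With the median over the probe sets of a gene in place of the brightest, 5 of the 15 were below 0.67 in place of 3, and the median log2 ratio of the 15 was -0.26 in place of -0.10. With the 25th percentile added to every signal, or with only genes at or above the median signal, 2 were below 0.67. Signals of the 14 summed to 21245 with corn and 17574 with paddy rice, and those of the 12 other than JCHAIN and IGLL1 to 17738 and 17036. The brightest of these 12, XBP1 (9303 with corn and 9085 with paddy rice), carried most of the sums over the 12. The list also holds PIGR (1719 and 1602), an epithelial receptor gene for polymeric immunoglobulins, whose log2 ratio of -0.10 was the median of the 15. SDC1 (2088 and 1700) is in it too. Which cells gave the XBP1, PIGR and SDC1 signals was not tested. The part of plasma and B cells in the lower AvBD10 signal was not tested either. Of the 19 epithelial markers, CUBN was above 1.5 and 18 lay between the thresholds, with signals that summed to 312920 with corn and 302100 with paddy rice, and a median log2 ratio of -0.052.

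**Figure D4:**
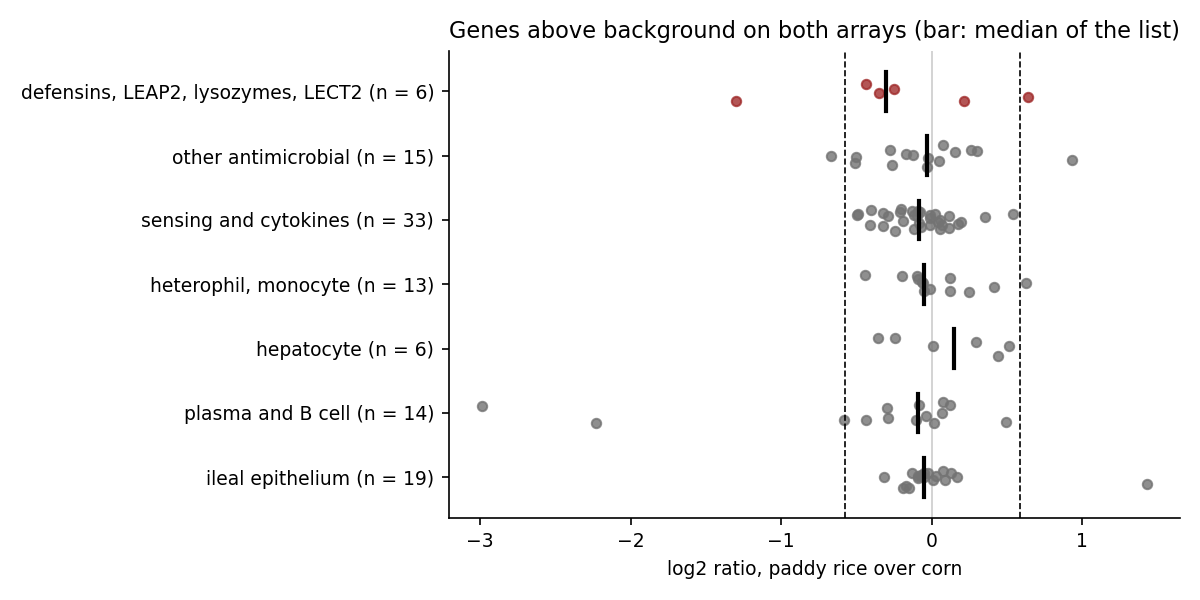
Log2 ratio of paddy rice over corn for the genes above background on both arrays, 1 point per gene by its brightest probe set, grouped by list, with the median of each list as a bar and the thresholds of 1.5 and 0.67 as dashed lines. The median of the 6 defensin, LEAP2, lysozyme and LECT2 genes is at -0.30 and those of the sensing, heterophil and epithelial lists lie between -0.085 and -0.049. The other antimicrobial list has its median at -0.028, the plasma and B cell list at -0.092 and the hepatocyte list at 0.15.

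The named genes with signals most like those of AvBD10, by the distance between their pairs of log2 signals over the 2 arrays, were APRT (692 on corn, 408 on paddy rice), PRR15L (699 and 417), PER3 (665 and 407), SEBOX (966 and 444) and ODF2 (708 and 461). Their distances from AvBD10 ran from 0.38 to 0.50. No named gene was closer than 0.38, and the ratios of these 5, from 0.459 to 0.651, were all nearer to 1 than that of AvBD10. These values are for the brightest probe set of each gene. APRT, PRR15L and PER3 had 5 other probe sets above background on both arrays, and their ratios ran from 0.711 to 1.71. Those of APRT (545 and 513, a ratio of 0.941) and PRR15L (299 and 256, a ratio of 0.857) were below 1, and PER3 had ratios of 0.711, 1.04 and 1.71.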

How the data were processed

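RNA of 3 birds per diet was pooled and hybridised to 1 array per diet. The deposited values are signal intensities per probe set on a linear scale, which the authors computed and scaled with the MAS5 algorithm, without detection calls. Trimmed means (2% at each end) were 500.1 on both arrays. Probe sets were named from the annotation of the platform, which can be old, and symbols were updated by Entrez identifier through the RefSeq table of GRCg7b. Of 37693 chicken probe sets, 27166 had 1 gene and 177 several, which were left unnamed. A gene with several probe sets took the brightest by mean log2 signal. Ratios above 1.5 or below 0.67, the folds of the study, were counted over all probe sets with no filter on signal. Counts among probe sets or genes above background on both arrays were also made. For the other lists these filtered counts are given, unless all measured genes are named. The counts of the lists under other settings start from all measured genes. Any filter the study applied is not given in the sources used here, so these counts cannot be set beside its own. In the lists, 6 entries carry another symbol than the one listed, with S100A12 (listed as S100A9) counted in more than 1 list. No test between diets was possible, and the number of arrays limits the precision.

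The genes and lists were chosen with earlier results of these data known, and the background percentile and the 1000 nearest probe sets after the values had been seen. Genes named from the lists are the defensins and cathelicidins and those past a threshold at or above the median signal, at most 4 per list. The other markers named (FABP6, SLC10A2, LGALS2, CTSS, NCF1C, CYBB, CSF3R, CSF1R, F2, VTN, TTR, CYP2C23a, FGA, FGB, APOH, AHSG, ALB, CD79B and XBP1) were picked after their values had been seen. So were PIGR, SDC1, FGG, F9, AMBP, HRG and C8A. Chromosome coordinates were used only to put genes in order, and no sequences were used. Counts and ratios were tested on simulated data. The simulation set changes only in class 4 and used less spread than any class showed, so it does not cover dim probe sets. Python 3.11.15, numpy 2.4.6, pandas 2.3.3, statsmodels 0.14.6 and matplotlib 3.10.9 were used.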

Additional observations from a re-analysis of the deposited data

How the results depend on the processing

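No paired analysis was possible because there was 1 array per diet. AvBD10 stayed below 0.67, between 0.406 and 0.430, under median centring, quantile normalization, loess centring, the addition of the 25th percentile to every signal, and the median over probe sets in place of the brightest. It was also below 0.5, the stricter threshold. Without probe sets marked as shared, AvBD10, AvBD9 and LYG2 could not be read, which left 1 gene and 1 probe set above 1.5 (DEFB4A) and 0 below 0.67. Under these settings LEAP2 lay between 0.738 and 0.761 and LYZ between 0.774 and 0.844, always between the thresholds. DEFB4A lay between 1.43 and 1.58, and 1.43, with the 25th percentile added, is under the threshold, so that 0 genes and 0 probe sets were then above 1.5 in place of 2. At or above the median signal 1 gene and 1 probe set were above 1.5, and at or above the 75th percentile, or with thresholds of 2 and 0.5, there were 0 of each. The scalings moved the median log2 ratio of all probe sets by less than 0.1. With only probe sets not marked as shared, the median log2 ratio of the hepatocyte list was -0.27 in place of 0.15 over all measured genes, most of them below background. With the median over probe sets, 5 plasma and B cell markers were below 0.67 in place of 3, and their median log2 ratio was -0.26 in place of -0.10. With the 25th percentile added, or at or above the median signal, 2 of these markers were below 0.67. Of the hepatocyte markers, the median over probe sets put 5 below 0.67 in place of 3 and 6 above 1.5 in place of 5. Their median log2 ratio was then 0.22 in place of 0.15. By the brightest probe set, 8.57% of all named genes were below 0.67 and 8.27% above 1.5. The low signals of AvBD9, LYG2 and LECT2 limit what can be said of them.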

Other observations

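The genes next to the antimicrobial genes on their chromosomes were read from the order of protein-coding genes in RefSeq. LYGL, the lysozyme gene beside LYG2 on chromosome 1, was at 612 with corn and 856 with paddy rice, for a ratio of 1.40, and at 445 and 529, for a ratio of 1.19, on its other probe set. Both were above 1, as was the ratio of 1.16 of LYG2, but the signals of LYGL stood further from background. LYZ, on the same chromosome, had both ratios below 1. On chromosome 13, LEAP2 lies between UQCRQ, a subunit gene of the respiratory chain with signals of 12624 and 12561 (a ratio of 0.995), and AFF4, a gene of transcription elongation. The AFF4 probe sets above background had signals of 244 and 167 (a ratio of 0.684) and of 125 and 91.2 (a ratio of 0.731). Beside LECT2, TGFBI was at 5062 and 5527, a ratio of 1.09. On its other side, FBXL21 had ratios of 1.045, 0.809 and 1.01 on its probe sets. Beside LYZ, CPSF6 had ratios of 1.19 and 0.975, and YEATS4 had ratios of 0.804, 0.750 and 0.953. The gene on the other side of LYG2 was below background on both arrays. These neighbours were chosen by position, and no difference between them was tested.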
